A study of Mus musculus with 18 samples.

Results

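Mitosis and spindle genes were examined in B cells (CD45.2+ B220+ Mac1-) sorted from the femur marrow of mice with 1 or both alleles of Smchd1, which encodes a chromatin silencing protein, deleted in their blood cells. The set held 42 genes chosen by name for their role in cell division, and each gene was taken from the row of the same symbol in both count tables. All 42 genes had 1 row in each table of 25965 rows, and all 42 passed the filter on low counts in both sexes. The control animals were Smchd1[del/+] Vav.Cre[T/+], called heterozygous here, with 1 deleted and 1 intact Smchd1 allele. The other group was Smchd1[del/del] Vav.Cre[T/+], called del/del, with both alleles deleted. The Vav-Cre transgene, a Cre expressed in the blood-forming lineage and in endothelium, was present in every animal, so no library came from an animal with 2 intact alleles or without Cre. All animals were C57BL/6 mice aged 12 to 16 months. Females gave 5 libraries of each genotype and males gave 4 of each, and the titles number every animal differently. Library numbers used here only name a library and pair nothing.

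Cells enter mitosis when cyclin B and its kinase CDK1 become active, after which condensin compacts the chromosomes, kinesins and microtubule-binding proteins build the spindle, and kinetochores tie the chromosomes to it. The spindle checkpoint holds back the anaphase-promoting complex until every kinetochore is attached. In the bone marrow B lineage, division is known to be concentrated in pro-B and large pre-B cells, whereas small pre-B cells and the mature B cells that return from the blood are largely resting. A bulk library of B220+ cells therefore mixes dividing and resting cells. In such data fewer cells of a dividing type and less RNA of these genes per cell cannot be told apart.

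Genes of this kind are known to share promoter elements, the CCAAT box bound by NF-Y and the cell cycle genes homology region (CHR) bound by the MuvB complexes. The rule that chose the genes did not use sequence. RefSeq promoters on GRCm38.p6, from 250 bases before to 50 bases after a start site, were listed for 35 of the 42 genes. The letters CCAAT were found on either strand in 27 of the 35 (77.1%), against 41.1% of 27025 genes with a listed promoter. A CHR motif, TTTGAA or TTCGAA on either strand, was found in 28 (80%), against 21.7% of all genes, and 25 (71.4%) held both, against 9.65% of all genes. Neither motif contains the other, and TTCGAA reads the same on both strands. A gene with several start sites was counted if any of them held the motif. These matches describe letters and do not show binding.

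The 180 bases before the start site of 5 genes are shown as examples, from many matches in Top2a to CCAAT boxes alone in Ccnb1. Kif2c, Kif15 and Anln, not shown, held CHR matches alone, and Melk, Nuf2, Birc5, Nusap1 and Ncaph held neither motif in the whole window. Capitals mark CCAAT and CHR matches on either strand, and each stretch is written 5′ to 3′ along the gene's strand. Top2a lies on the minus strand at chr11:99024190-99024369, Mki67 on the minus strand at chr7:135716380-135716559, Cdk1 on the minus strand at chr10:69352913-69353092, Kif11 on the plus strand at chr19:37376202-37376381 and Ccnb1 on the minus strand at chr13:100786487-100786666.
Top2a: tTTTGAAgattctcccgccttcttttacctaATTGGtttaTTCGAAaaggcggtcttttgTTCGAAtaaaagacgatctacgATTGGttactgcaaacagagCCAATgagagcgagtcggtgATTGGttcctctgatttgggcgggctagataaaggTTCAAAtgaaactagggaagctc
Mki67: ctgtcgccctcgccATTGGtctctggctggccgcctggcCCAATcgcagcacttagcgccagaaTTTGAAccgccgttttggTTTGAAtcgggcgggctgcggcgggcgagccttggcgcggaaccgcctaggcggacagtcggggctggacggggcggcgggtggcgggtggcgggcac
Cdk1: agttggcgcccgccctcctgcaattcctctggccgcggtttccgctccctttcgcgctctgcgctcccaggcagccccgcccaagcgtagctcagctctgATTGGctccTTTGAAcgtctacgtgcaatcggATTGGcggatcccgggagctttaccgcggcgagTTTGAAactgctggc
Kif11: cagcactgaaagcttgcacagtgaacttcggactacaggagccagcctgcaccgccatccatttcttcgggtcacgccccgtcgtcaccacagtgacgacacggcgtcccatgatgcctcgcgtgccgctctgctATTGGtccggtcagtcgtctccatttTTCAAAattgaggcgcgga
Ccnb1: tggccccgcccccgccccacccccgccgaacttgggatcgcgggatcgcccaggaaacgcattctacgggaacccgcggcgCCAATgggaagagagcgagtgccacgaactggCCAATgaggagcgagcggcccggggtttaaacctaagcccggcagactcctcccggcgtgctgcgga
The Top2a stretch held 4 CCAAT and 4 CHR matches, those of Mki67 and Cdk1 held 2 and 2, that of Kif11 held 1 and 1, and that of Ccnb1 held 2 CCAAT matches and 0 CHR matches. Over all listed promoters of the 35 genes, the median position of a match was -71 for CCAAT and -15 for CHR, counted from the start site. These RefSeq start sites can differ from the gene ends in the count tables. There the minus-strand rows of Ccnb1 and Cdk1 reach to 100786570 and 69352938, inside the stretches shown.

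Total counts ran from 9788112 to 29405395 per library, and the 42 genes together had 48216 to 256595 counts per library. At these depths counting error was small beside the differences between animals. For 8 of the genes (Ccna2, Cdc20, Ube2c, Foxm1, Kif20a, Cdca8, Nusap1 and Ncapg) the span from start to end overlaps that of another row, for Foxm1 on the same strand. Whether their exons overlap was not examined. Since the strand setting of the counting is not given, some reads may be shared. Smchd1 itself was at 235 to 271 CPM (counts scaled to a common library total with TMM factors) in heterozygous females, at 128 to 173.5 CPM in del/del females, and at 274 to 324 and 162 to 197 CPM in males, with no overlap in either sex. The 7 B lineage identity markers, such as Cd79a, summed to 5621 to 7293 CPM over the 18 libraries. T and NK cell markers summed to 121 to 226 CPM, erythroid markers to 584 to 1473 CPM and neutrophil and monocyte markers to 1056 to 6061 CPM, and no tested marker was at 0 counts in any library. Female del/del libraries 1, 3 and 5 and male del/del libraries 3 and 4 stood apart from the other libraries of their sex in the genes studied here, as described next.

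Every one of the 42 genes had a negative log2 fold change between del/del and heterozygous libraries in females and again in males, and none passed the test in either sex. The median log2 fold change was -0.22 in females, with a range of -0.30 for Ccnb1 to -0.09 for Anln, and -0.13 in males, with a range of -0.31 for Kif11 to -0.05 for Ccnb2. Over all genes tested, 51.2% had a negative value in females and 49.4% in males, and the medians were -0.0044 and 0.0013. The members vary together from library to library, so 42 equal signs are not 42 separate observations. With the edgeR quasi-likelihood test, 0 of 42 members were called at an adjusted p under 0.05 in females (smallest adjusted p = 0.975) and 0 of 42 in males (0.9998), where 0.252% and 0.119% of all genes were called, and 0.00741% and 0.00746% as lower. At an unadjusted p under 0.05 there were 0 members in either sex, against 4.3% of all genes in females and 3.34% in males (1.18% and 1.02% for lower values). Leaving out 1 library moved this count to 10 in females without del/del library 2 and 5 without del/del library 4, and in males to 2 without del/del library 1, 2 without del/del library 2 and 1 without heterozygous library 3, with 0 members called in each of these fits. DESeq2 and limma voom also called 0 members in each sex, and at an unadjusted p each gave 0 members in females and 1 in males. For the fits without 1 library and for these tools, the share of all genes at that level was not worked out. All 42 intervals of the difference included 0 in each sex. In the authors' deposited table for each sex, 42 of 42 members had a negative log2 fold change and 0 had an adjusted p under 0.05.

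**Figure D1:**
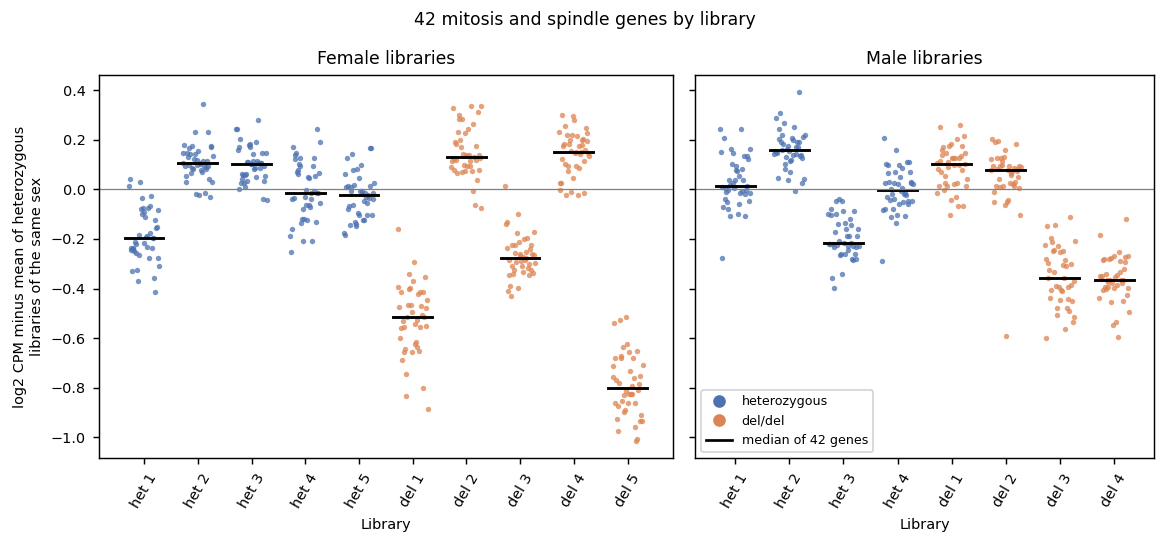
Each point is 1 of the 42 genes in 1 library, plotted as its log2 CPM minus the gene's mean over heterozygous libraries of the same sex, with libraries along the horizontal axis and a black line at the median. The points of female del/del libraries 1, 3 and 5 and male del/del libraries 3 and 4 lie almost all below 0, while those of female del/del libraries 2 and 4 lie mostly above.

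The del/del libraries of 1 sex did not behave alike. In female del/del library 5 all 42 genes were below every heterozygous library, with a median of -0.80 (log2) from the heterozygous mean, and in library 1 this held for 41 genes, with a median of -0.52. In library 3 it held for 30 genes, with a median of -0.28. Female del/del libraries 2 and 4 had 0 genes below every heterozygous library, and 18 and 21 genes above every one, with medians of 0.13 and 0.15. These libraries held the highest value of the 10 females for 14 and 15 genes, and library 5 held the lowest for 36 genes, with library 1 lowest for the other 6.

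In males the del/del libraries again divided into low and not low ones, with a smaller gap. Male del/del libraries 3 and 4 each had 39 of 42 genes below every heterozygous library, with medians of -0.36 and -0.36 from the heterozygous mean. Male del/del library 1 had 0 such genes and a median of 0.10, and library 2 had 1 such gene, Kif11, and a median of 0.08. Male heterozygous library 3 was itself low, with all 42 genes below the heterozygous mean and a median of -0.22, and male heterozygous library 2 held the highest value of the 8 males for 26 genes. For 0 of 42 genes were all del/del libraries below all heterozygous libraries, in females (0.222% of all genes) or in males (0.529%).

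Seen as a share of the library, the 42 genes took 0.721% to 0.874% of counts in heterozygous females, and 0.576%, 0.878%, 0.684%, 0.889% and 0.472% in female del/del libraries 1 to 5. The female del/del libraries thus lay on both sides of the heterozygous range, with 3 below it and 2 above it. In males the shares were 0.412% to 0.527% in heterozygous libraries and 0.507%, 0.489%, 0.359% and 0.364% in del/del libraries 1 to 4.

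The spread between animals differed more than the means did in females. The mean log2 CPM of the 42 genes was 7.11 ± 0.119 in female heterozygous and 6.85 ± 0.413 in female del/del libraries (SD, n = 5 each), and 6.33 ± 0.148 and 6.19 ± 0.246 in males (SD, n = 4 each). The SD over del/del libraries was above that over heterozygous libraries for 42 of 42 genes in females (63.1% of all genes) and 40 of 42 in males (47.6%). It was more than 1.5 times that over heterozygous libraries for 42 of 42 genes in females, against 36.8% of all genes, and for 27 of 42 in males, against 23.6%. These counts are a description, since the genes vary together and no test of the spread was made. The median SD of a member was 0.42 in del/del and 0.15 in heterozygous females, and 0.26 and 0.17 in males (log2 CPM).

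The genes kept close company across libraries. The median Pearson correlation between 2 of the genes was 0.926 over the 10 female libraries and 0.865 over the 8 male libraries, given here without a test because the libraries share depth and cell composition. Anln was the least like the other members in females (0.820) and Kif11 in males (0.595), while Kif23 in females (0.992) and Ncaph in males (0.994) followed them most closely.

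**Figure D2:**
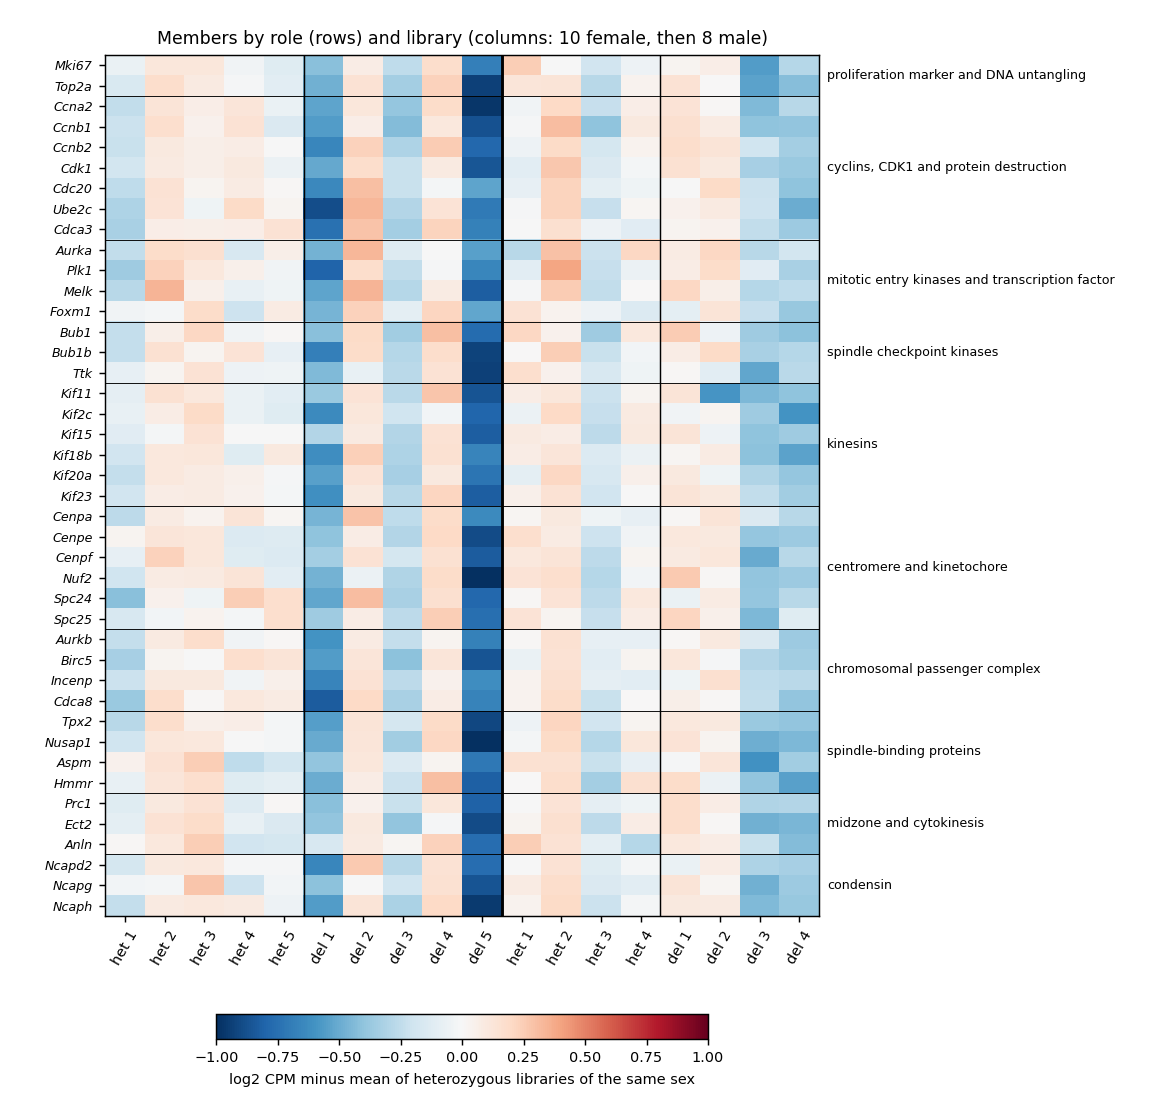
Rows are the 42 genes grouped by role and columns are the 18 libraries, 10 female and then 8 male, with colour giving log2 CPM minus the gene's mean over heterozygous libraries of the same sex. The columns of female del/del libraries 1 and 5 and male del/del libraries 3 and 4 are below 0 for all 42 genes and that of female del/del library 3 for 41, with Anln the exception, and Kif11 in male del/del library 2 is the single dark cell in an otherwise pale column.

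The proliferation marker Mki67, which coats mitotic chromosomes, averaged 1078 ± 81.9 CPM over the heterozygous females and 945 ± 226 CPM over the del/del females (SD, n = 5 each), and its log2 fold change was -0.19 (SE 0.14). Top2a, the topoisomerase that untangles replicated chromosomes, stood at 1077, 1348, 1275, 1184 and 1113 CPM in female heterozygous libraries 1 to 5 and 858, 1318, 945, 1401 and 626 CPM in female del/del libraries 1 to 5. Del/del libraries 1, 3 and 5 were below every heterozygous female while del/del library 4 was above, and the log2 fold change was -0.22 (SE 0.18, 95% interval -0.62 to 0.18, edgeR adjusted p = 0.975). Male values of Top2a were 746, 747, 565 and 700.3 CPM in heterozygous libraries 1 to 4 and 758, 688, 472 and 510.5 CPM in del/del libraries 1 to 4. Male del/del libraries 3 and 4 were below every heterozygous male and library 1 above every one, and the log2 fold change was -0.18 (SE 0.16, 95% interval -0.53 to 0.17, edgeR adjusted p = 0.9998).

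Among the cyclins, CDK1 and the proteins of mitotic protein destruction, all 7 genes had female values between -0.30 and -0.19 and male values between -0.14 and -0.05. Cyclin A2 (Ccna2), which acts in S phase and in mitotic entry, was measured at 339, 441, 421, 438 and 384 CPM in female heterozygous libraries 1 to 5 and 279, 437, 308, 458 and 205 CPM in female del/del libraries 1 to 5. The groups overlapped, with del/del libraries 1, 3 and 5 below and library 4 above all controls, and the log2 fold change was -0.26 (SE 0.19, 95% interval -0.67 to 0.14, edgeR adjusted p = 0.975). In males Ccna2 was at 213.7, 252, 186 and 229.8 CPM in heterozygous libraries 1 to 4 and 241, 221, 162 and 180.4 CPM in del/del libraries 1 to 4. Here libraries 3 and 4 were below the controls, and the log2 fold change was -0.13 (SE 0.13, 95% interval -0.43 to 0.17, edgeR adjusted p = 0.9998).

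Cyclin B1 (Ccnb1), the main mitotic partner of CDK1, reached 48.2, 62.8, 57.6, 61.8 and 50.5 CPM in female heterozygous libraries 1 to 5 and 37.9, 58.5, 41.4, 60.1 and 30.5 CPM in female del/del libraries 1 to 5. It had the lowest female estimate of the 42, and the log2 fold change was -0.30 (SE 0.17, 95% interval -0.67 to 0.07, edgeR adjusted p = 0.975). For males the Ccnb1 levels were 33.9, 42.3, 25.9 and 36.6 CPM in heterozygous libraries 1 to 4 and 38.2, 36.1, 25.8 and 26.0 CPM in del/del libraries 1 to 4. Only del/del library 3 was below every control, by a margin under 1 CPM, and the log2 fold change was -0.14 (SE 0.17, 95% interval -0.53 to 0.25, edgeR adjusted p = 0.9998). Both Ccnb1 and Ccnb2 have pseudogenes named after them in GENCODE M21, so their reads may be shared with those copies.

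Cyclin B2 (Ccnb2) was found at 143, 178, 173.1, 175 and 165.5 CPM in female heterozygous libraries 1 to 5 and 106, 195, 134, 199 and 96.6 CPM in female del/del libraries 1 to 5. Del/del libraries 2 and 4 exceeded all controls, libraries 1, 3 and 5 were below all of them, and the log2 fold change was -0.19 (SE 0.19, 95% interval -0.59 to 0.21, edgeR adjusted p = 0.975). Males had Ccnb2 at 88.7, 105, 81.6 and 94.0 CPM in heterozygous libraries 1 to 4 and 104, 100.4, 80.2 and 72.5 CPM in del/del libraries 1 to 4. This was the male estimate nearest to 0, and the log2 fold change was -0.05 (SE 0.12, 95% interval -0.33 to 0.23, edgeR adjusted p = 0.9998). The kinase Cdk1 itself was at 137 ± 11.1 and 118 ± 33.1 CPM in females (SD, n = 5 each). Cdc20, the activator of the anaphase-promoting complex, and Ube2c, its ubiquitin-conjugating enzyme, were at log2 fold changes of -0.19 (SE 0.16) and -0.22 (SE 0.20). Cdca3, which takes part in destroying an inhibitor of mitotic entry, was at -0.20 (SE 0.19).

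The kinases and the transcription factor of mitotic entry had the smallest differences of the roles in males, with a median of -0.06, and a female median of -0.17. Foxm1, the transcription factor that drives many G2 and M phase genes, stood at 159, 161, 185, 141 and 172.6 CPM in female heterozygous libraries 1 to 5 and 118, 191, 152, 189.5 and 114 CPM in female del/del libraries 1 to 5. Only del/del libraries 1 and 5 were below all controls, libraries 2 and 4 were above them, and the log2 fold change was -0.10 (SE 0.15, 95% interval -0.42 to 0.22, edgeR adjusted p = 0.975). Foxm1 in males was at 108, 99.6, 93.9 and 88.3 CPM in heterozygous libraries 1 to 4 and 90.5, 106, 82.9 and 74.6 CPM in del/del libraries 1 to 4. Libraries 3 and 4 were the low ones, and the log2 fold change was -0.13 (SE 0.11, 95% interval -0.38 to 0.11, edgeR adjusted p = 0.9998). The mitotic kinases Plk1 and Aurka were at -0.27 (SE 0.17) and -0.14 (SE 0.16) in females on the log2 scale, and Melk, another kinase of dividing cells, at -0.19 (SE 0.20). In males Plk1, Aurka and Melk were at -0.05 (SE 0.15), -0.06 (SE 0.15) and -0.07 (SE 0.14).

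The spindle checkpoint kinases followed the same libraries. Bub1b, which encodes the checkpoint protein BUBR1, was at 199, 259, 238, 258 and 221 CPM in female heterozygous libraries 1 to 5 and 145, 265, 192, 264 and 123 CPM in female del/del libraries 1 to 5. Libraries 1, 3 and 5 lay below and libraries 2 and 4 above the controls, and the log2 fold change was -0.25 (SE 0.19, 95% interval -0.66 to 0.17, edgeR adjusted p = 0.975). Male Bub1b levels were 139, 164, 119 and 136 CPM in heterozygous libraries 1 to 4 and 145, 158, 110.4 and 114 CPM in del/del libraries 1 to 4. With libraries 3 and 4 below the controls, the log2 fold change was -0.08 (SE 0.13, 95% interval -0.38 to 0.22, edgeR adjusted p = 0.9998).

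Ttk, the kinase MPS1 that starts checkpoint signalling at kinetochores, had values of 48.4, 52.4, 56.8, 49.4 and 49.9 CPM in female heterozygous libraries 1 to 5 and 37.7, 48.7, 42.6, 56.7 and 26.8 CPM in female del/del libraries 1 to 5. No del/del library exceeded the controls, libraries 1, 3 and 5 were below them, and the log2 fold change was -0.27 (SE 0.16, 95% interval -0.62 to 0.07, edgeR adjusted p = 0.975). The male libraries had Ttk at 32.4, 29.7, 25.9 and 27.97 CPM in heterozygous libraries 1 to 4 and 29.1, 26.9, 20.2 and 24.0 CPM in del/del libraries 1 to 4. As for most members, libraries 3 and 4 were below the controls, and the log2 fold change was -0.21 (SE 0.12, 95% interval -0.48 to 0.06, edgeR adjusted p = 0.9998). Bub1 was at -0.16 (SE 0.18) in females and -0.13 (SE 0.16) in males.

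Of the 6 kinesins, motor proteins that move along spindle microtubules, the female values ran from -0.27 to -0.17 and the male values from -0.31 to -0.08. Kif11 (Eg5), which pushes the spindle poles apart, was at 331, 392, 379, 337 and 328 CPM in female heterozygous libraries 1 to 5 and 273, 387, 293, 428 and 193.9 CPM in female del/del libraries 1 to 5. It had 3 libraries below the controls and library 4 above them, and the log2 fold change was -0.17 (SE 0.17, 95% interval -0.54 to 0.21, edgeR adjusted p = 0.975). Male Kif11 values were 220.1, 226, 179.7 and 212.1 CPM in heterozygous libraries 1 to 4 and 228, 138, 153 and 158 CPM in del/del libraries 1 to 4. Here 3 of 4 del/del libraries, among them library 2, were below the controls, and the log2 fold change was -0.31 (SE 0.15, 95% interval -0.63 to 0.02, edgeR adjusted p = 0.9998). The male log2 fold change was -0.23 without del/del library 2 and -0.48 without del/del library 1.

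Kif2c (MCAK), which takes microtubules apart at kinetochores, stood at 61.8, 68.4, 74.2, 62.3 and 59.7 CPM in female heterozygous libraries 1 to 5 and 41.9, 70.5, 56.5, 64.0 and 37.4 CPM in female del/del libraries 1 to 5. Libraries 1, 3 and 5 were below the controls, and the log2 fold change was -0.27 (SE 0.16, 95% interval -0.61 to 0.07, edgeR adjusted p = 0.975). The Kif2c level of males was 35.0, 41.9, 31.0 and 38.7 CPM in heterozygous libraries 1 to 4 and 35.6, 37.1, 28.4 and 24.1 CPM in del/del libraries 1 to 4. Libraries 3 and 4 were below the controls, and the log2 fold change was -0.23 (SE 0.15, 95% interval -0.55 to 0.10, edgeR adjusted p = 0.9998). Kif15, Kif18b, Kif20a and Kif23 had female log2 fold changes of -0.20, -0.20, -0.24 and -0.23 (SE 0.15 to 0.17) and male ones of -0.16, -0.19, -0.15 and -0.08 (SE 0.12 to 0.14).

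In the centromere and kinetochore group the female median was -0.18 and the male median -0.11. Cenpa, the histone H3 variant of centromeres, was at 135, 171.1, 165, 176 and 164 CPM in female heterozygous libraries 1 to 5 and 117, 197, 135, 184 and 104 CPM in female del/del libraries 1 to 5. Libraries 1 and 5 were below and libraries 2 and 4 above the controls, and the log2 fold change was -0.14 (SE 0.16, 95% interval -0.49 to 0.21, edgeR adjusted p = 0.975). Among males Cenpa was at 104, 111, 100.3 and 97.7 CPM in heterozygous libraries 1 to 4 and 104, 113, 93.3 and 85.0 CPM in del/del libraries 1 to 4. The 2 groups differed little, with library 2 above and libraries 3 and 4 below the controls, and the log2 fold change was -0.06 (SE 0.09, 95% interval -0.27 to 0.14, edgeR adjusted p = 0.9998). The kinesin Cenpe and the kinetochore protein Cenpf were at -0.22 (SE 0.17) and -0.18 (SE 0.16) in females. Nuf2, Spc24 and Spc25, which with Ndc80 form the complex that grips microtubules, were at -0.28 (SE 0.17), -0.19 (SE 0.20) and -0.17 (SE 0.15).

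The chromosomal passenger complex, which corrects faulty attachments and later directs cytokinesis, had the lowest female median of any role, at -0.26, and a male median of -0.11. Its scaffold Incenp was at 188, 234, 234, 213.6 and 226 CPM in female heterozygous libraries 1 to 5 and 138, 241, 182, 225 and 142 CPM in female del/del libraries 1 to 5. Libraries 1, 3 and 5 were below the controls and library 2 above, and the log2 fold change was -0.24 (SE 0.15, 95% interval -0.56 to 0.09, edgeR adjusted p = 0.975). Incenp in males was measured at 141, 153, 129 and 128 CPM in heterozygous libraries 1 to 4 and 134, 154, 115 and 114 CPM in del/del libraries 1 to 4. Library 2 was above and libraries 3 and 4 below the controls, and the log2 fold change was -0.09 (SE 0.11, 95% interval -0.33 to 0.14, edgeR adjusted p = 0.9998).

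The kinase of the complex, Aurkb, had levels of 102, 128, 135, 117 and 121 CPM in female heterozygous libraries 1 to 5 and 79.2, 127, 102, 123 and 75.02 CPM in female del/del libraries 1 to 5. None of the del/del libraries was above the controls, and the log2 fold change was -0.26 (SE 0.15, 95% interval -0.57 to 0.06, edgeR adjusted p = 0.975). Male Aurkb levels were 72.6, 80.1, 68.2 and 68.2 CPM in heterozygous libraries 1 to 4 and 72.9, 77.0, 65.1 and 56.2 CPM in del/del libraries 1 to 4. Libraries 3 and 4 were below the controls, and the log2 fold change was -0.09 (SE 0.10, 95% interval -0.32 to 0.13, edgeR adjusted p = 0.9998). Birc5 (survivin) was at 121 ± 15.4 and 99.8 ± 29.4 CPM in females (SD, n = 5 each), and Cdca8 (borealin) had a log2 fold change of -0.27 (SE 0.18).

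Nusap1, which bundles spindle microtubules near chromosomes, was at 207, 257, 256, 236 and 233 CPM in female heterozygous libraries 1 to 5 and 167.01, 257, 186, 273 and 118 CPM in female del/del libraries 1 to 5. Again libraries 1, 3 and 5 were below and libraries 2 and 4 above the controls, library 2 by a margin under 1 CPM, and the log2 fold change was -0.25 (SE 0.19, 95% interval -0.65 to 0.15, edgeR adjusted p = 0.975). The Nusap1 values of males were 126, 145, 105 and 137 CPM in heterozygous libraries 1 to 4 and 139.7, 129.99, 90.6 and 93.2 CPM in del/del libraries 1 to 4. In these, libraries 3 and 4 were below the controls, and the log2 fold change was -0.18 (SE 0.16, 95% interval -0.53 to 0.17, edgeR adjusted p = 0.9998). Tpx2, which activates Aurora A on the spindle, and the spindle pole proteins Aspm and Hmmr were at -0.21, -0.20 and -0.18 in females (SE 0.15 to 0.18).

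Of the genes of the spindle midzone and cytokinesis, Ect2 had the smallest female p of all members and Anln the largest. Ect2, the exchange factor that activates RhoA at the cleavage furrow, was at 103, 122, 126, 105 and 100.1 CPM in female heterozygous libraries 1 to 5 and 84.1, 119, 84.2, 110.1 and 59.7 CPM in female del/del libraries 1 to 5. No del/del library was above the controls, libraries 1, 3 and 5 were below them, and the log2 fold change was -0.29 (SE 0.16, 95% interval -0.62 to 0.05, edgeR adjusted p = 0.975). In males Ect2 stood at 65.0, 71.4, 53.3 and 67.0 CPM in heterozygous libraries 1 to 4 and 71.98, 64.3, 45.8 and 46.5 CPM in del/del libraries 1 to 4. Library 1 was above and libraries 3 and 4 below the controls, and the log2 fold change was -0.17 (SE 0.16, 95% interval -0.51 to 0.18, edgeR adjusted p = 0.9998).

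Anln (anillin), a scaffold of the contractile ring, was at 67.1, 71.4, 78.7, 58.2 and 58.7 CPM in female heterozygous libraries 1 to 5 and 59.4, 70.7, 67.1, 77.9 and 39.2 CPM in female del/del libraries 1 to 5. Only library 5 was below the controls, and the log2 fold change was -0.09 (SE 0.16, 95% interval -0.43 to 0.25, edgeR adjusted p = 0.975). For Anln the male values were 50.1, 46.7, 39.5 and 34.6 CPM in heterozygous libraries 1 to 4 and 45.5, 44.6, 36.2 and 31.2 CPM in del/del libraries 1 to 4. Only library 4 was below the controls, and the log2 fold change was -0.12 (SE 0.15, 95% interval -0.44 to 0.21, edgeR adjusted p = 0.9998).

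Prc1, which bundles the midzone microtubules, had levels of 153, 178, 184, 152 and 168 CPM in female heterozygous libraries 1 to 5 and 125, 171.04, 142, 180.1 and 95.01 CPM in female del/del libraries 1 to 5. Libraries 1, 3 and 5 were below the controls, and the log2 fold change was -0.23 (SE 0.15, 95% interval -0.55 to 0.09, edgeR adjusted p = 0.975). Prc1 in males reached 91.7, 101, 86.4 and 89.0 CPM in heterozygous libraries 1 to 4 and 104, 96.5, 74.6 and 74.9 CPM in del/del libraries 1 to 4. Library 1 was above and libraries 3 and 4 below the controls, and the log2 fold change was -0.07 (SE 0.11, 95% interval -0.33 to 0.18, edgeR adjusted p = 0.9998).

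The condensin subunits, which compact chromosomes, were close to one another, at -0.24 to -0.20 in females and -0.16 to -0.14 in males. Ncapd2 was at 448, 542, 546, 502 and 502 CPM in female heterozygous libraries 1 to 5 and 322, 609, 418, 559 and 299 CPM in female del/del libraries 1 to 5. The del/del libraries took both the highest and the lowest values, and the log2 fold change was -0.20 (SE 0.18, 95% interval -0.59 to 0.18, edgeR adjusted p = 0.975). Male Ncapd2 was at 316, 351, 292 and 314 CPM in heterozygous libraries 1 to 4 and 303, 335, 257 and 252 CPM in del/del libraries 1 to 4. Libraries 3 and 4 were below the controls, and the log2 fold change was -0.15 (SE 0.10, 95% interval -0.38 to 0.08, edgeR adjusted p = 0.9998). Ncapg and Ncaph had female log2 fold changes of -0.23 (SE 0.16) and -0.24 (SE 0.18).

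**Figure D3:**
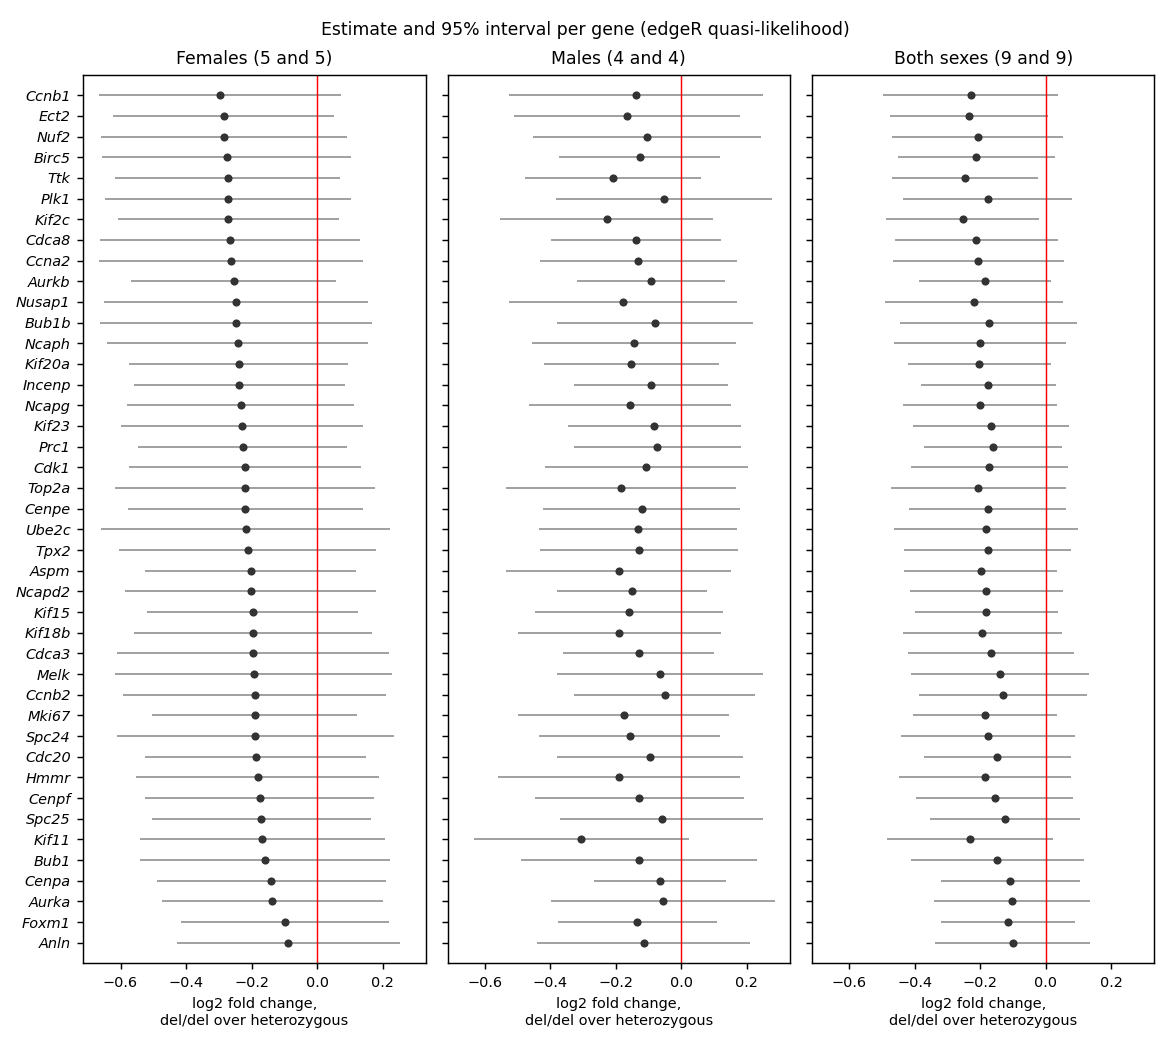
Points are log2 fold changes of del/del over heterozygous libraries for each gene and bars are 95% intervals, for females (5 and 5 libraries), males (4 and 4) and both sexes in one fit (9 and 9). All points lie left of 0, every interval in the single sexes crosses 0, and only those of Ttk and Kif2c do not when the sexes are combined.

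Fitting all 18 libraries with sex as a covariate gave narrower intervals and still no call. All 42 members were negative, with a median of -0.18, a range of -0.25 to -0.10 and a median SE of 0.11, where the median over 14017 genes was -0.0005 and 50.1% were negative. With edgeR's quasi-likelihood test 0 of 42 were called (smallest adjusted p = 0.675), where 0.556% of all genes were, and 0.0214% as lower, and 2 members, Ttk and Kif2c, had an unadjusted p under 0.05 (unadjusted p = 0.0312 and unadjusted p = 0.0354), against 6.76% of all genes in either direction and 2.45% for lower values. Their log2 fold changes were -0.25 (SE 0.11) and -0.25 (SE 0.11). DESeq2 gave 2 and voom 6 members at that unadjusted level, and both called 0. This count rested on the low and high libraries, being 19 without female del/del library 2, 22 without female del/del library 4, 10 without male del/del library 1, 6 without male del/del library 2 or female heterozygous library 1 and 4 without male heterozygous library 3. It was 0 without female heterozygous library 3, female del/del library 1 or male del/del library 3, and 1 without female heterozygous library 2, female del/del library 5, male heterozygous library 1, 2 or 4 or male del/del library 4. In each of the 18 fits 0 members were called. The share of all genes at that unadjusted level was not worked out for DESeq2, voom or these 18 fits. Whether the changes in count are particular to the members is therefore not known.

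The medians within each sex also rested on single libraries. The female median was -0.10 without del/del library 5, where 41 of 42 genes were negative. The male median was -0.08 without heterozygous library 2, -0.06 without del/del library 3 and -0.06 without del/del library 4, and -0.20 without heterozygous library 3, -0.21 without del/del library 1 and -0.21 without del/del library 2. The interaction of sex and genotype was called for 0 of 42 members and for 0 genes in all with edgeR's quasi-likelihood test, with 0 members and 1.45% of all genes at an unadjusted p under 0.05 (1.07% below 0). The male value was above the female one for 35 of 42 members, with a median difference of 0.07, and below it for 53.6% of all genes. DESeq2 called 4 genes and voom 0, and 0 members were among them.

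The level of these genes differed more between the sexes than between the genotypes. With all 18 libraries scaled together, the mean log2 CPM of the 42 genes was 7.09 ± 0.115 in female (SD, n = 5) and 6.35 ± 0.146 in male heterozygous libraries (SD, n = 4). All 42 genes had a higher mean in females, as did 49.1% of all genes, by 0.61 to 0.89 on the log2 scale with a median of 0.74, and for all 42 every female heterozygous library was above every male one, which held for 11.5% of all genes. The sexes were deposited as separate tables, and sex and table cannot be told apart. Mature B cell markers, such as Cr2 and Fcer2a, went the other way, with a sum of 2763 to 3630 CPM in female and 5279 to 6269 CPM in male heterozygous libraries.

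Levels between genes were compared per kilobase of exon, from exon lengths of GENCODE M21. The length merges all exons annotated for a gene, 4217 bases for Ccnb1 and 1531 for Ccnb2, so the order depends on which transcripts are annotated. In female heterozygous libraries Top2a was highest at 133 ± 12.5 CPM per kb, followed by Ccnb2 at 109 ± 9.35, Mki67 at 107 ± 8.14 and Ccna2 at 99.2 ± 10.6 CPM per kb (SD, n = 5 each). The latter 3 did not differ beyond their spread. Anln was lowest at 7.37 ± 0.960 CPM per kb, below Aspm at 10.3 ± 1.51, Cenpf at 10.4 ± 1.21 and Ttk at 10.4 ± 0.686 CPM per kb, which were alike within their spread. Ccnb1, at 13.3 ± 1.56 CPM per kb, was far below Ccnb2. The order was much the same in male heterozygous libraries, from Top2a at 76.5 ± 9.55 to Anln at 4.71 ± 0.769 CPM per kb (SD, n = 4 each), and 41 of 42 genes had ranks within 3 places in both sexes.

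**Figure D4:**
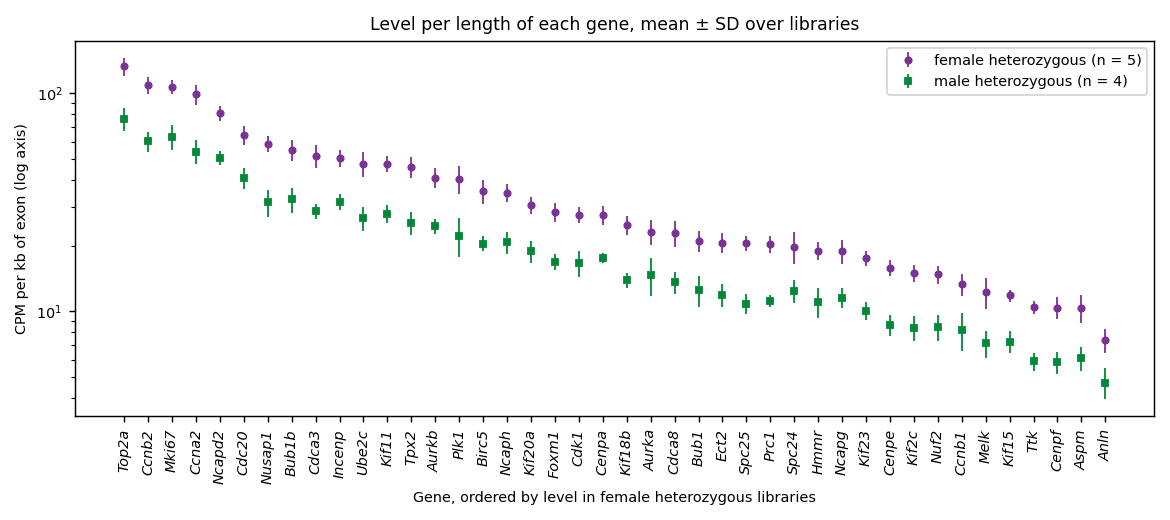
Each point is the mean level of a gene in heterozygous libraries in CPM per kb of exon on a log axis, with bars of 1 SD, for females (n = 5) and males (n = 4). Top2a is highest and Anln lowest in both sexes, and the male points lie below the female ones for every gene.

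Other cell cycle genes were taken from 4 lists. Of 78 further mitotic genes, 77 were negative in females with a median of -0.20 and 69 in males with a median of -0.09, and 0 passed the test in either sex. Nsl1, a kinetochore protein, had the smallest female p of this list, at -0.36 (SE 0.16) in females and 0.06 (SE 0.13) in males. Ncapg2, a condensin II subunit, the RhoA regulator Arhgap11a and the kinase Mastl were at -0.28 (SE 0.15), -0.24 (SE 0.13) and -0.40 (SE 0.21) in females. Of 48 genes of S phase and replication, 47 were negative in females (median -0.20) and 44 in males (median -0.11), and again 0 passed. Their female values included Fen1, a flap nuclease, at -0.24 (SE 0.13), Cdc45, a helicase subunit, at -0.30 (SE 0.16), the clamp loader gene Rfc5 at -0.24 (SE 0.13), with a male value of 0.13 (SE 0.08), and Gins1, also of the helicase, at -0.28 (SE 0.15).

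Of 19 transcription regulators of the cell cycle, 16 were negative in females (median -0.10) and 12 in males (median -0.04), with 0 called. E2f3 was at -0.21 (SE 0.09), Tfdp2, a partner of E2F factors, at -0.29 (SE 0.12), Rbl1, which encodes p107, at -0.17 (SE 0.11) and Mybl2, a MuvB partner, at -0.22 (SE 0.15) in females. Of the 6 tested CDK inhibitors 3 were negative and 3 positive in each sex, and 0 were called. Cdkn1c, which encodes p57, was at 0.97 (SE 0.26, edgeR quasi-likelihood adjusted p = 0.368) and Cdkn2a, which encodes p16 and p19, at 1.24 (SE 0.38, adjusted p = 0.591) in females, and at 0.40 (SE 0.40) and 0.50 (SE 0.34) in males. Cdkn1a, which encodes p21, and Cdkn2c, which encodes p18, were at -0.13 (SE 0.13) and -0.09 (SE 0.13) in females.

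Among genes in none of the lists whose mean log2 CPM reached 3 or more, the 10 whose level tracked the mean of the 42 genes most closely over the 18 libraries, after each sex's mean was removed, had a Pearson r of 0.957 to 0.979, given as a description. The median over the 9489 candidates was 0.0274. The 10 were the histone chaperone Asf1b (0.979), 5730590G19Rik (0.976), the replication checkpoint gene Clspn (0.974), Prr11 (0.968), the spindle orientation gene Gpsm2 (0.966), the lamin gene Lmnb1 (0.966), the maintenance DNA methyltransferase Dnmt1 (0.962), the recombination gene Rad54l (0.959), the dUTPase gene Dut (0.958) and the nuclear lamina gene Tmpo (0.957). None of them passed the genotype test in females, where their log2 fold changes ran from -0.26 to -0.14. Since they were chosen for tracking the 42 genes in these same libraries, values like those of the members follow from the choice.

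Markers of B cell stage and of other cell types moved with these levels in part. Mature B cell markers (13 tested, 13 positive and 0 called in females, median 0.16) summed to 4057, 2387, 4060, 2954 and 5197 CPM in female del/del libraries 1 to 5 and to 2763 to 3630 CPM in heterozygous ones. In females they were thus above every control in the 3 libraries where the mitotic genes were low. Of all 13501 genes tested in females, 6594 were positive. In males 11 of the 13 were positive (0 called, median 0.07). Male sums were 5243 to 6638 CPM in del/del and 5279 to 6269 CPM in heterozygous libraries. Plasmacytoid dendritic cell markers (15 tested, 15 positive and 0 called in females, median 0.42), of a cell type known to carry B220, had a mean log2 CPM of 6.81, 6.17, 6.97, 5.96 and 7.03 in female del/del libraries 1 to 5, against 5.88 to 6.62 in heterozygous ones. Female del/del libraries 1, 3 and 5 were again above every control. Over both sexes 14 of the 15 were positive, 6 had an unadjusted p under 0.05 and 1 was called, Il3ra, the interleukin 3 receptor alpha chain, at 0.55 (SE 0.08, edgeR adjusted p = 0.00111). Of all 14017 genes in that fit, 6991 were positive, 603 were higher at the unadjusted level and 75 were called as higher. By sum the plasmacytoid markers ranged from 3117 to 4100 CPM in del/del and from 3014 to 4141 CPM in heterozygous females. In males the plasmacytoid list was at 5.92, 5.97, 5.99 and 5.42 in del/del libraries 1 to 4. Libraries 1 and 2, where the mitotic genes were not low, and library 3, where they were, were above every control (5.36 to 5.65). Library 4, where the mitotic genes were also low, was within their range.

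Pro-B and pre-B markers, such as Rag1 and Igll1 (15 tested, 14 negative in females with a median of -0.12, and 15 negative in males with a median of -0.30, 0 called in both), had a mean log2 CPM of 7.72, 7.76, 7.46, 8.02 and 7.31 in female del/del libraries 1 to 5, against 7.48 to 7.93 in heterozygous ones. Libraries 3 and 5 were below every control and library 1 was within their range. The lower end of that range was female heterozygous library 1, with the next control at 7.84. Del/del libraries 1 and 2 both lay between it and that next control. In males this list was at 7.25, 7.16, 6.80 and 6.89 in del/del libraries 1 to 4, against 7.11 to 7.52, and libraries 3 and 4 were below every control. At an unadjusted edgeR p under 0.05, 8 of these 15 markers were lower in males, against 1.02% of all genes. The count was 0 in females (1.18%) and 3 over both sexes (2.45%). Erythroid markers, some of which, such as Tfrc, dividing B cells also express, had 16 of 17 negative values in each sex, with medians of -0.60 in females and -0.61 in males and 0 called. By the same unadjusted threshold 12 of the 17 were lower in females, 2 in males and 13 over both sexes. Erythroid markers summed to 718, 825, 674, 1061 and 584 CPM in female del/del libraries, against 728 to 1185 CPM in heterozygous ones, so that by sum libraries 1, 3 and 5 were below every control. By mean log2 CPM they were not, at 2.97, 3.02 and 2.84 against a lowest control of 2.83. In males the del/del sums of 660 to 763 CPM lay within the heterozygous range of 624 to 1473 CPM. Neutrophil and monocyte markers (16 tested, 10 positive in females with a median of 0.20 and 16 in males with a median of 0.27, 0 called) summed to 1748, 1056, 5124, 1959 and 5150 CPM in female del/del libraries, against 1576 to 3706 CPM, and libraries 3 and 5 were above every control. In males they summed to 3529, 1948, 6061 and 2517 CPM in del/del libraries 1 to 4, against 1841 to 3519 CPM. Plasma cell markers (7 tested, 0 called) summed to 1049 to 1532 CPM in female del/del and 1197 to 1412 CPM in heterozygous libraries. The part of these cell types in the levels of the mitotic genes was not tested.

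**Figure D5:**
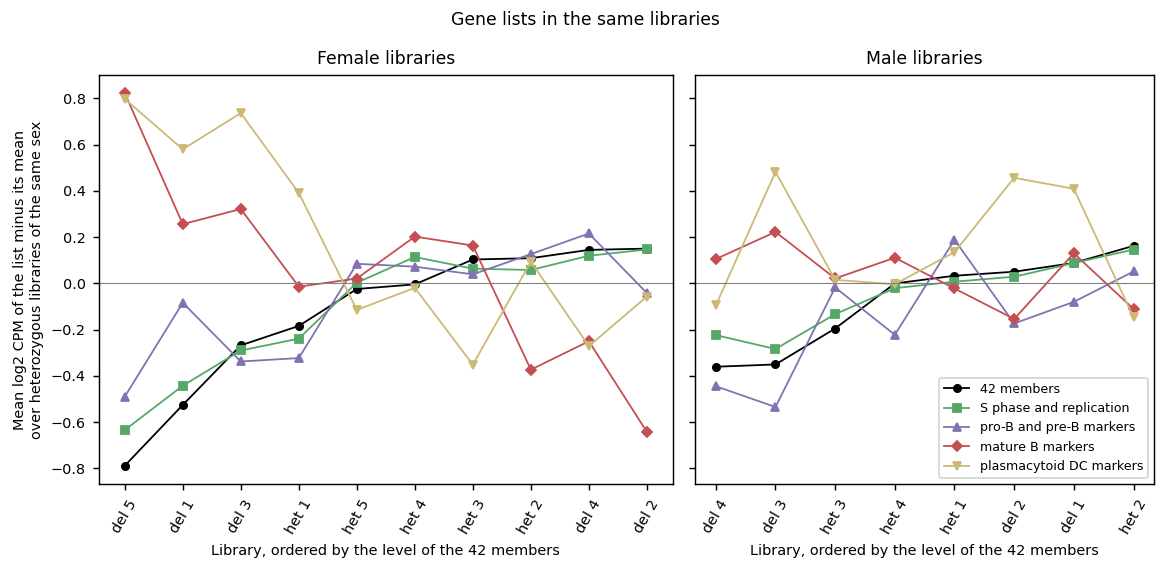
The mean log2 CPM of 5 gene lists, each minus its mean over heterozygous libraries of the same sex, is plotted for every library, with libraries ordered by the level of the 42 members. S phase and replication genes track the members, while in females mature B and plasmacytoid dendritic cell markers are highest in del/del libraries 1, 3 and 5, at the low end.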

How the data were processed

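Polyadenylated RNA from B cells sorted from femur marrow was sequenced, and the deposited tables hold raw counts per gene for each library, 1 table per sex. Per the submitters' processing notes the tools included TopHat and edgeR 3.32.1, with genome builds mm10 and GRCm38. The counter, annotation release and strand setting are not given in the sources used here. Per the file headers, the other deposited tables give the authors' log2 fold change, log2 CPM, test score and p-value of each gene, of which the fold changes and adjusted p-values were set beside the fits made here. The deposited count tables also hold 2 columns of mean signal per genotype, made by the authors from the counts, which were not used. The 56 rows without an identifier (at most 0.0846% of counts) were not removed before the filter on low counts.

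Genes were filtered with filterByExpr (minimum count 10, total 15), scaled by TMM within each sex and fitted in edgeR 4.0.16 (R 4.3.3) with its quasi-likelihood test, with Benjamini-Hochberg adjustment over all genes and a threshold of 0.05. Intervals are 95% intervals from the same fit. Levels are CPM, and log2 CPM uses a prior count of 2. The fit over both sexes had sex as a covariate, and an interaction term was fitted separately. DESeq2 1.42.0, voom in limma 3.58.1, other scaling, no filter, a replicate block and leaving out each library were alternatives. The scripts were tested on simulated data, with pass marks set only for unchanged genes and for changes far larger than those of the members. Totals ran from 9788112 to 29405395 counts per library. Animals were separate by their numbers.

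The members and lists were chosen with earlier results of these data known. Values by library are given for the member of each role with the highest mean log2 CPM, the 3 members with the smallest p in females and in males, and the highest and lowest log2 fold change of each comparison. Up to 4 genes with the smallest female p are named from each pathway list. The lists were the 42 members by role, other mitotic genes, S phase genes, transcription regulators, CDK inhibitors, and markers of B identity, pro-B and pre-B, mature B, plasma, plasmacytoid dendritic, erythroid, neutrophil and monocyte, and T and NK cells. One marker gene is not reported here and was left out of its list.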

Additional observations from a re-analysis of the deposited data

Results flagged for a closer look

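In 4 of 120 groups of 4 or 5 libraries examined, 1 library lay far from the others for its group, and chance alone gives about 1 in 20. None of the 4 was the level of the 42 mitotic genes or of a member described by library. The levels of the roles were not examined in this way. Cell cycle transcription regulators were highest in female heterozygous library 3, at a mean log2 CPM of 6.05 against 5.93 for the next. Plasma cell markers were highest in female heterozygous library 2, at 6.999 against 6.72. Plasmacytoid dendritic cell markers were lowest in male del/del library 4, at 5.42 against 5.92. Pro-B and pre-B markers were lowest in female heterozygous library 1, at 7.48 against 7.84.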

How the results depend on the processing

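Under RLE size factors, no filter on low counts, DESeq2, voom and the replicate block, all 42 members kept a negative value in females, in males and over both sexes, and 0 were called under any alternative run. The number of all genes called depended on the tool: in females it was 34, with 92 by DESeq2 and 58 with all 18 libraries in 1 fit, in males 16 and 49 by DESeq2, over both sexes 78 and 141 by DESeq2, and for the interaction 0 and 4 by DESeq2. Members with a negative interaction numbered 7, and 4 by voom.

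Leaving out 1 library at a time gave 26 to 41 genes called in females, with a median member log2 fold change of -0.33 to -0.10 and 41 to 42 members negative, 5 to 22 genes called in males, with medians of -0.21 to -0.06 and 37 to 42 negative, and 57 to 115 genes over both sexes, with medians of -0.23 to -0.12 and all 42 negative. For the interaction the median ran from -0.04 to 0.18, 1 to 30 members were negative and 0 genes were called. Among members described by library, the sign turned for Anln in females (-0.17 to 0.041, the highest without del/del library 5), for Bub1b in males (-0.19 to 0.00724, the highest without heterozygous library 2) and for Ccnb2 in males (-0.13 to 0.034, the highest without del/del library 4, and 0.02 without heterozygous library 2).

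The labels state no pairs. A replicate block that joined animals by the order of their numbers gave 23 genes called in females, 13 in males and 88 over both sexes, with 0 members called (smallest adjusted p = 0.534, 0.610 and 0.248 with edgeR). Member medians under the block were -0.26, -0.14 and -0.21, and 12, 8 and 31 members had an unadjusted p under 0.05, against 0, 0 and 2 without it. The share of all genes at that level under the block was not worked out. The rise is therefore not known to be particular to the members. Deviations of joined libraries correlated at -0.0420 to 0.283 in females and 0.105 to 0.330 in males. With 4 or 5 animals a group, the spread between animals limits these comparisons, and the part of count depth in it was not measured.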

Other observations

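One value of 1 member went against its library. In male del/del library 2, Kif11 was at -0.59 (log2) from the heterozygous mean, while the median of the 42 genes there was 0.08 and the other 41 lay between -0.10 (Ttk) and 0.20. It rested on 3113 counts. Genes beside Kif11 on chromosome 19 were at -0.07 (Ide), -0.10 (Hhex), -0.03 (March5) and -0.02 (Exoc6) in that library, and Cpeb3, at only 1.02 CPM, was at 0.34. This value was chosen after the values were seen and has no test.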
